A study of Mus musculus with 4 samples.

Results

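Esm1 and 7 other genes that mark endothelial tip cells, namely Fscn1, Prnd, Trp53i11, Kit, Mcam, Fxyd6 and Odc1, were followed in brain vascular cells of mice lacking Angpt2. These 8 members were taken by symbol from the 32286 features of the count matrices, and all 8 were counted in every library. They had been picked because they were high in Apln-rich endothelial cells (ECs) of these same mice, so their rise with Apln is given as a description and was not tested. The study sequenced single cells from the cerebra of 4 mice aged 3 months, 1 library per mouse, after vascular fragments had been panned with anti-PECAM1 beads. Angpt2-WT mice (Angpt2+/+; WT1 female, WT2 male) were littermates of Angpt2-KO mice (Angpt2-/-; KO1 female, KO2 male), in which exon 4 had been removed in all tissues from a floxed allele by Pgk-Cre before backcrossing to C57BL6/J. Values are unique molecular identifiers (UMIs, 1 per captured transcript), and a level is the gene's UMIs divided by all UMIs of that group of cells in a mouse, as CPM (1 CPM is 1 UMI in 1000000).

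Tip cells are the endothelial cells that lead a growing sprout. They extend filopodia towards VEGF, and Dll4-Notch signalling keeps their neighbours as stalk cells. Angpt2 is a ligand of the Tie2 receptor, which is encoded by Tek, and Apln is a secreted peptide that tip cells release and that acts on a receptor found on neighbouring ECs. In the adult brain, where sprouting has largely ended, such cells are rare. Among the members, Esm1 encodes a secreted proteoglycan (endocan), Fscn1 an actin-bundling protein of filopodia, Prnd the prion-like protein doppel, Kit the receptor for stem cell factor, Mcam the adhesion molecule CD146, Fxyd6 a regulator of the Na,K-ATPase, Odc1 the rate-limiting enzyme of polyamine synthesis and Trp53i11 a p53-inducible membrane protein.

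All 8 members lie on the plus strand of GRCm38, spread over 5 chromosomes. The sequence before the first annotated start is shown for the 3 members that were higher in KO ECs without any Apln UMI (Esm1, Fscn1 and Prnd) and for the 1 that was lower there (Fxyd6). The sequences come from RefSeq (GRCm38.p6, plus strand) and cover chr13:113209409-113209658 for Esm1, chr5:142960105-142960342 for Fscn1, chr2:131950611-131950860 for Prnd and chr9:45369935-45370184 for Fxyd6, with motif matches in capitals.
Esm1: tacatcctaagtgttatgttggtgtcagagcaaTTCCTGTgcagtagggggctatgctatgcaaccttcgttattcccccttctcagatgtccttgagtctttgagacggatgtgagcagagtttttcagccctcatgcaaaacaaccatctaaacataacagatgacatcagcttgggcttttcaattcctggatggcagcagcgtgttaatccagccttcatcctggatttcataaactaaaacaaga
Fscn1: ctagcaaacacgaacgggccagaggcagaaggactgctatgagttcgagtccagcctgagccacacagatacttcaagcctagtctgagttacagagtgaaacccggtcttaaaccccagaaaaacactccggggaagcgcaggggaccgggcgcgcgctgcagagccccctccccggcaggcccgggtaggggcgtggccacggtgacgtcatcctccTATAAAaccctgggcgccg
Prnd: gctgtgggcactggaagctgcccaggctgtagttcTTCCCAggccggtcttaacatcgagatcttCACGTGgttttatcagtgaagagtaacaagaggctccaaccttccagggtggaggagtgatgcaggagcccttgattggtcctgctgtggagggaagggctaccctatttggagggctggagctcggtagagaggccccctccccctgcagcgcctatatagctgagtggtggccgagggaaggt
Fxyd6: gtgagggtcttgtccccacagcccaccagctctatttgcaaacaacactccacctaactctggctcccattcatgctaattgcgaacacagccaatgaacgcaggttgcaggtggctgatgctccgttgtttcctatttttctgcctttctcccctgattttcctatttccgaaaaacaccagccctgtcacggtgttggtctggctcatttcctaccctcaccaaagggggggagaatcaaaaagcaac

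In all, 9 motifs were searched on both strands in the 250 bases before each RefSeq start (the stretch shown for Fscn1 stops at its first GENCODE start), and no motif was held by all 8 members. Esm1 alone held the ETS letters ACAGGAA (here on the reverse strand, 217 bases before the start), which 7.20% of all 32851 windows hold. Prnd held the RBPJ letters TGGGAA (21.6% of windows), the E-box CACGTG (6.02%) and, inside that E-box, the hypoxia response core ACGTG (16.6%). Fscn1 held TATAAA (12.4%) 19 bases before its first GENCODE start, while Trp53i11, Odc1, Kit and Mcam held the GC box GGGCGG (32.7%). The forkhead letters TGTTTAC (3.17%), the TEAD letters CATTCC (12.6%) and the AP-1 letters TGACTCA (4.46%) were in none of the 8 windows.

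After removal of cells with 500 genes or fewer or with 10% or more mitochondrial UMIs, 17999 of 19809 barcodes remained, with 31753395 to 42903731 UMIs per library and between 4088.5 and 7351.5 median UMIs per cell and library. ECs made up 14201 of these cells (3276 and 4694 in the WT, 2087 and 4144 in the KO mice), and mural cells, which wrap the vessels, made up 1247 (599 pericyte-like and 648 smooth muscle-like). KO1 was the deepest library, and 33 barcodes were shared between libraries. The targeted gene did not check the genotypes, because Angpt2 UMIs come from the 3′ end of the transcript and need not touch the deleted exon. In ECs, TMM-normalized Angpt2 was 10.9 and 9.81 CPM in the WT mice and 64.3 and 40.9 CPM in the KO mice. All 7 endothelial markers were detected in the ECs of every mouse, with a summed level of 11622 to 12652 CPM.

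ECs were ranked by their Apln UMIs into cells with 0, with 1 to 9 and with 10 or more. The top rank held 1 cell of WT1, 3 of WT2, 114 of KO1 (5.46% of its ECs) and 46 of KO2 (1.11%). The middle rank held 38, 60, 277 and 262 cells in the same order. Nearly all top-rank cells of the KO mice belonged to 1 EC cluster led by Apln (98.2% in KO1 and 100% in KO2), and this held although Apln and the members had been left out of the clustering. Top-rank cells were deep, with a median of 23166.5 UMIs in KO1 and 11786 in KO2 against 6959 and 3794 at rank 0, so that CPM are given before shares of cells.

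In both KO mice every member was higher in the top rank than in the middle rank, and higher in the middle rank than at rank 0. Esm1 reached 34.0 CPM at rank 0, 93.1 in the middle rank and 1313 in the top rank of KO1. In KO2 it reached 34.2, 151.5 and 1393 CPM. The top-rank level of Esm1 was thus 38.6-fold and 40.8-fold that of rank 0, and the 2 KO mice lay close together.
Kit had the steepest rise of the 8, from 2.62 to 244 CPM in KO1 (93.2-fold) and from 2.51 to 288 CPM in KO2 (115-fold). Odc1 had the shallowest, 11.1-fold and 13.8-fold, starting from 38.0 and 38.6 CPM in ECs without Apln. Trp53i11 rose 47.8-fold and 62.8-fold, Fxyd6 38.6-fold and 54.0-fold, Fscn1 32.2-fold and 63.1-fold, Mcam 33.7-fold and 29.9-fold, and Prnd 31.0-fold and 31.1-fold.

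**Figure D1:**
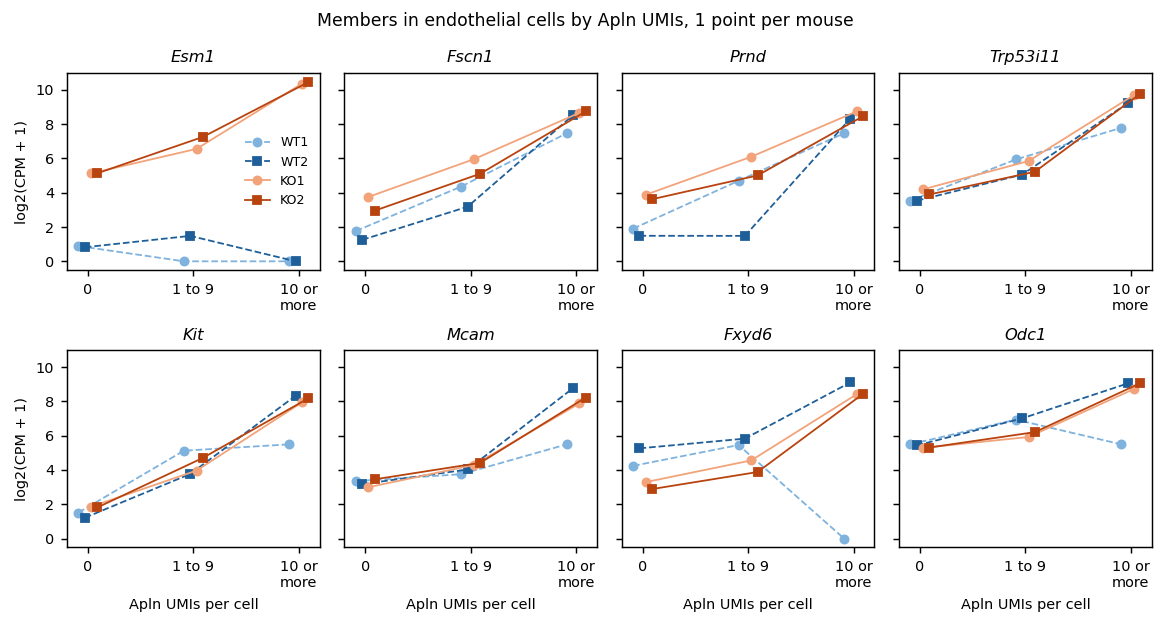
Level of each member (y axis, log2 of CPM plus 1) in ECs with 0, 1 to 9 and 10 or more Apln UMIs (x axis), with 1 line per mouse (dashed WT, solid KO). The lines of KO1 and KO2 climb in all 8 panels, and Esm1 stays near the floor in both WT mice, whose top rank holds only 1 and 3 cells.

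The 4 WT cells with 10 or more Apln UMIs held 7 of the 8 members but no Esm1. Together they carried 66484 UMIs, and 0 Esm1 UMIs allow a level of up to 45.1 CPM (3 counts of the summed total), whereas the 160 KO cells reached 1328 CPM and 135 of them held Esm1. The pooled level in KO cells was 29.4-fold that limit, which covers counting error in the 4 WT cells and no spread between cells or mice. The exact Poisson 95% interval on the WT level of Esm1 ran higher, up to 55.5 CPM. The other members were found in these WT cells at 226 to 466 CPM, mostly in the 3 cells of WT2: the single WT1 cell held no Fxyd6 (549 CPM in WT2), while Odc1 and Mcam were at 43.9 CPM in WT1 against 526 and 435 in WT2, and Kit at 43.9 against 320. Trp53i11 was at 466 CPM against 838 in KO cells, a ratio of 1.80, while the ratio was 1.12 for Kit, 0.942 for Fxyd6, 0.817 for Mcam, 1.22 for Odc1, 1.35 for Fscn1 and 1.53 for Prnd. Apln itself was at 1218 CPM in the WT cells and 2706 CPM in the KO cells. With 1 and 3 WT cells no test was made, and the exact Poisson 95% interval on the WT level of Trp53i11, 317 to 662 CPM, covers counting error only.

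Around the cut at 10 Apln UMIs, Esm1 was higher just inside than just outside in KO1 and lower in KO2, in few cells each. It was at 166 CPM in 18 KO1 cells and at 864 CPM in 8 KO2 cells just outside it (7 to 9 Apln UMIs), and at 347 CPM in 8 KO1 cells and 359 CPM in 4 KO2 cells just inside it (10 to 12 Apln UMIs). At 20 or more Apln UMIs it reached 1510 and 1826 CPM. In KO1 and KO2 cells holding exactly 1 Apln UMI it was at 51.6 and 105 CPM.

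Top-rank cells were few but held a larger share of every member's UMIs than of all UMIs in the KO ECs. They held 14.4% of all EC UMIs in KO1 and 3.37% in KO2, yet 82.6% and 51.4% of the Esm1 UMIs. For Kit the shares were 88.9% and 67.8%, for Trp53i11 84.5% and 65.4%, and for Fxyd6 83.0% and 62.8%. Odc1 was the most spread, with 62.4% and 30.7% in the top rank, and Prnd (74.1% and 48.0%), Fscn1 (74.9% and 61.2%) and Mcam (80.7% and 48.6%) lay between. In the WT mice the rank-0 cells held 60.6% or more of the UMIs of every member. The WT top rank was nearly empty, with 0.0861% of all EC UMIs in WT1 and 0.129% in WT2. In WT2 it held 22.9% of the Fscn1, 19.7% of the Kit and 18.7% of the Prnd UMIs. Mcam (6.40%), Trp53i11 (6.37%), Fxyd6 (1.84%) and Odc1 (1.49%) followed there. In WT1 the largest share was 5.19%, for Fscn1, and Odc1 was at 0.0828%. Neither WT mouse had Esm1 UMIs in the top rank, and WT1 had no Fxyd6 UMIs there.

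The members also met in the same cells. In the top rank, the median cell held 7 of the 8 members in both KO mice, and all 8 were found together in 49 of 114 cells of KO1 and 22 of 46 of KO2. Among all ECs no WT cell held all 8, and 5 or more members were found in 0.366% of WT1, 0.128% of WT2, 6.80% of KO1 and 1.35% of KO2 cells. At an equal depth of 2000 UMIs per cell (shallower cells left out), the shares with 5 or more were 0.0319%, 0.0429%, 2.34% and 0.649%. The order of KO1 above KO2 above both WT mice was the same at both depths.

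Of the 28 possible pairs, all 28 were found together more often than the product of their separate shares predicts (odds ratio above 1) in the ECs of each KO mouse, with median odds ratios of 9.69 in KO1 and 8.32 in KO2. In WT1 25 and in WT2 26 of the 28 pairs were above 1, with medians of 3.73 and 4.77. The pair of Trp53i11 and Kit was the closest in KO1, found in 122 cells (odds ratio 33.3), and the pair of Fscn1 and Kit in KO2, found in 53 cells (32.5). At rank 0 the medians fell to 2.94 in KO1 and 2.90 in KO2, and at 2000 UMIs per cell to 1.95 and 1.82. The rank-0 medians of the WT mice were 3.03 in WT1 and 3.80 in WT2, above those of both KO mice, and 2.24 and 1.44 at 2000 UMIs. Cell depth and the number of Apln-rich cells both move with these ratios, and their part was not tested.

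**Figure D2:**
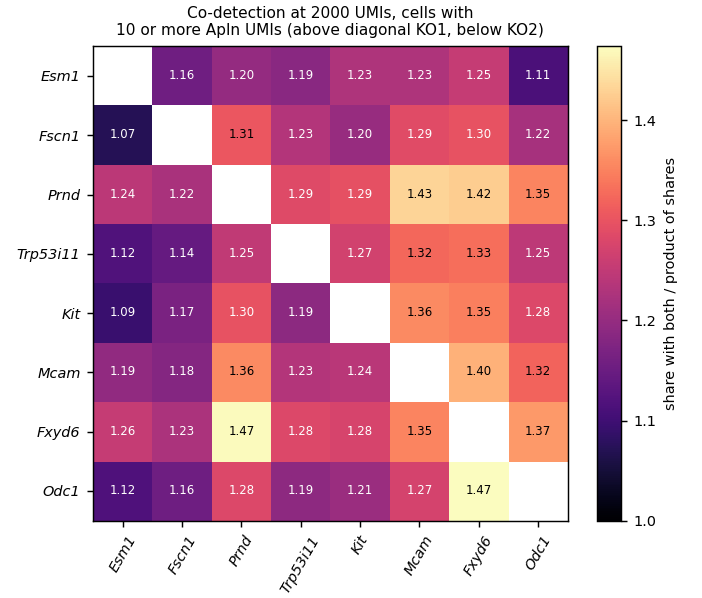
Share of cells holding both genes divided by the product of their 2 shares (colour and printed value), for each pair of members in ECs with 10 or more Apln UMIs, at a depth of 2000 UMIs per cell. KO1 is above the diagonal and KO2 below it, and every pair is above 1, from 1.11 to 1.43 in KO1 and from 1.07 to 1.47 in KO2.

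Within the top rank the median odds ratio was 4.76 in KO1, with all 28 pairs above 1, and 5.77 in KO2, with 22 of the 25 pairs that gave a ratio above 1. At 2000 UMIs the medians were 2.49 and 2.67, with all 28 pairs above 1 in both mice. There the median ratio of the share with both genes to the product of shares was 1.29 in KO1 and 1.23 in KO2. By this ratio Prnd and Mcam were the closest pair in KO1 and Fxyd6 and Odc1 in KO2. The lowest ratios both involved Esm1, with Odc1 in KO1 and with Fscn1 in KO2. This ratio cannot exceed 1 divided by the larger of the 2 shares, so genes found in more cells have a lower ceiling. By odds ratio at 2000 UMIs, Trp53i11 and Fxyd6 were the closest pair in both mice (4.40 in KO1 and 5.38 in KO2). Esm1 was detected in 84.2% and 84.8% of top-rank cells (58.9% and 67.6% at 2000 UMIs). Trp53i11 and Fscn1 were found in more of these cells, in 93.9% and 95.7% and in 92.1% and 91.3%, while Fxyd6 was found in the fewest, 71.9% and 58.7%.

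Angpt2-KO was compared with Angpt2-WT over mice, with the UMIs of all ECs of a mouse summed and all genes fitted together (edgeR quasi-likelihood test, Benjamini-Hochberg adjusted over all genes tested). Such a sum mixes the number of Apln-rich cells with the level in each cell. Of the 8 members, 6 were higher in KO ECs, whereas 5.84% of the 13517 genes tested were called in either direction, 3.77% as higher and 2.08% as lower. The median log2 fold change of the members was 3.23 against -0.02 for all genes tested. The members had been chosen from cells that only the KO mice held in number, so this count describes the choice as well as the mice.

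Esm1 was at 0.832 CPM in WT1 and 0.797 in WT2, against 228 in KO1 and 91.3 in KO2. The groups did not overlap, and KO1 was well above KO2. The log2 fold change was 7.59 ± 0.51 (SE, n = 2 mice per genotype, edgeR adjusted p = 0.000906). Fscn1 was at 2.91, 2.07, 77.3 and 23.4 CPM (log2 fold change 4.33 ± 0.54, adjusted p = 0.00504), and Prnd followed at 3.37, 2.22, 82.7 and 24.7 CPM (4.26 ± 0.55, 0.00538). For these 2 genes too, every KO value lay above every WT value. Kit was higher by 3.51 ± 0.45 on the log2 scale (adjusted p = 0.00533), Trp53i11 by 2.94 ± 0.45 (0.00961) and Mcam by 1.77 ± 0.29 (0.0118). The calls of Trp53i11 and Mcam were lost when WT1 or WT2 was left out and when cells were gated on marker UMIs (adjusted p = 0.0941 and 0.145).

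Odc1 and Fxyd6 did not pass the test. Odc1 was at 45.7 and 45.5 CPM in the WT mice and at 96.9 and 58.5 CPM in the KO mice (log2 fold change 0.75 ± 0.20, edgeR adjusted p = 0.0790). For Fxyd6 the groups overlapped, with 18.4 CPM in WT1 and 38.5 in WT2, against 58.7 in KO1 and 18.5 in KO2 (0.42 ± 0.48, adjusted p = 0.713). Its direction hung on the KO library: without KO1 the log2 fold change was -0.63, and without KO2 it was 1.06.

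The same comparison in ECs without any Apln UMI left out the cells that the ranks set apart. Here 3 members were higher in KO mice (Esm1, Prnd and Fscn1) and 1 was lower (Fxyd6), against 2.31% of the 13317 genes called higher and 1.71% called lower (4.02% in either direction). Esm1 was at 0.851 CPM in WT1 and 0.765 in WT2, against 34.0 in KO1 and 34.2 in KO2, and thus nearly equal within each genotype (log2 fold change 5.38 ± 0.15, edgeR adjusted p = 7.13e-06, 41.6-fold). It came from 22 and 25 UMIs in the WT mice and 519 and 653 in the KO mice. Esm1 was found in 0.649% and 0.475% of WT and in 9.32% and 6.70% of KO rank-0 cells.
At 2000 UMIs per cell these shares were 0.0769%, 0.166%, 3.86% and 4.10%. Microglia-like cells, which should lack Esm1, gave 0%, 0.631%, 0.810% and 0.948% at the same depth. Their median depths ran from 3490 to 6265 UMIs, against 3794 to 6959 for rank-0 ECs. The KO share in rank-0 ECs was thus above that of microglia-like cells in both KO mice, while the WT share was not above it in WT2.

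Prnd was at 2.75 and 1.80 CPM in WT and at 13.8 and 11.3 CPM in KO rank-0 cells (log2 fold change 2.45 ± 0.23, edgeR adjusted p = 0.00241), and Fscn1 at 2.40, 1.38, 12.5 and 6.75 CPM (2.33 ± 0.36, 0.0124). No KO mouse overlapped a WT mouse for either gene. Fxyd6 went the other way, from 17.9 and 37.2 CPM in WT to 8.78 and 6.38 CPM in KO (-1.89 ± 0.32, adjusted p = 0.0181). Trp53i11 (0.54, adjusted p = 0.0904), Kit (0.68, 0.299), Odc1 (-0.19, 0.385) and Mcam (-0.03, 0.958) did not pass.

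Some of these rank-0 calls were lost when a cluster of ECs was left out, and the part of cell makeup was not tested. The Apln-led cluster took up 1.11% and 0.95% of rank-0 ECs in the WT mice but 36.6% and 20.9% in KO1 and KO2. Without that cluster Esm1 stayed higher in KO (log2 fold change 4.14, edgeR adjusted p = 0.00013), at 12.4 and 15.9 CPM against 0.864 and 0.743, but Prnd (1.31, 0.0577) and Fscn1 (0.95, 0.375) did not pass. Prnd is itself among the leading genes of the Apln-led cluster, so leaving that cluster out also takes out cells rich in Prnd. Another cluster, led by Adgrg6 and holding the venous genes Ackr1 and Vwf, carried Fxyd6 at 95.0 and 126 CPM in WT and at 38.5 and 29.5 CPM in KO. That cluster held 144 and 366 cells of the WT and 43 and 156 of the KO mice. Without it Fxyd6 was at 7.66, 12.4, 7.06 and 4.45 CPM in rank-0 ECs, and its call was lost (-0.84, adjusted p = 0.144), as it was without the deepest 5% of cells (-1.26, 0.0718). The call of Fscn1 was lost without WT2 (1.95) and in the marker gate (1.35).

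In the middle rank Esm1, Prnd and Fscn1 were again higher in KO mice, and Fxyd6 and Odc1 were lower, against 2.80% of 9609 genes called higher and 2.22% called lower (5.02% in either direction). Esm1 had no UMI in the 38 cells of WT1, which allows up to 5.34 CPM, and was at 1.80 CPM in the 60 cells of WT2, 93.1 in KO1 and 151.5 in KO2 (log2 fold change 6.57 ± 0.56, edgeR adjusted p = 9.11e-05). Fscn1 was at 19.6, 8.08, 61.0 and 33.5 CPM (2.01 ± 0.43, adjusted p = 0.0163), and Prnd at 24.9, 1.80, 67.4 and 31.1 CPM (2.39 ± 0.63, 0.0477). Odc1 was at 121 and 128 CPM in WT and at 59.5 and 72.7 CPM in KO cells (-0.95 ± 0.16, 0.00573), and Fxyd6 at 42.7 and 55.7 against 22.5 and 13.7 CPM (-1.43 ± 0.27, 0.00871).
Trp53i11, Kit and Mcam, with log2 fold changes of 0.14, -0.12 and 0.42, did not pass. Without WT2 the calls of Fscn1 (1.29) and Prnd (1.02) were lost, without KO1 that of Odc1 (-0.79), and without the deepest 5% of cells those of Fscn1 (0.94), Prnd (1.48) and Fxyd6 (-0.75). The ranks differed in which clusters filled them, since the Apln-led cluster made up 21.1% and 10.0% of the middle-rank cells of WT1 and WT2 and 69.7% and 56.5% of those of KO1 and KO2. Without the Adgrg6-led cluster 34, 41, 270 and 250 middle-rank cells were left in WT1, WT2, KO1 and KO2. There 4 members were called, against 5 with it, and the loss was among those lower.

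**Figure D3:**
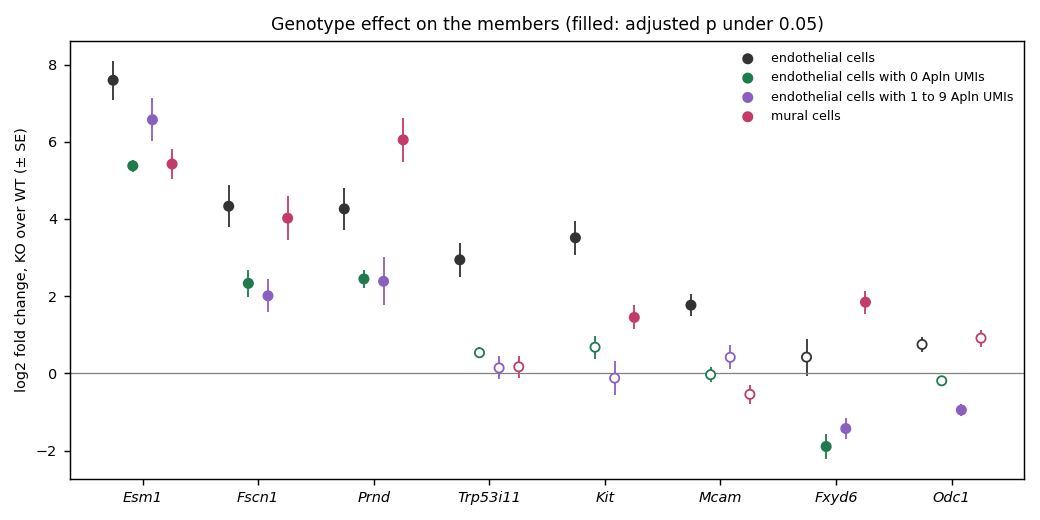
Log2 fold change of KO over WT with its SE (y axis) for each member (x axis) in all ECs, ECs with 0 and with 1 to 9 Apln UMIs, and mural cells, from edgeR fits over 2 mice per genotype, with filled points for an adjusted p under 0.05. Esm1, Fscn1 and Prnd are filled and above 0 in all 4 groups of cells, and Fxyd6 is filled below 0 in both lower Apln ranks and above 0 in mural cells.

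Mural cells carried member UMIs too, and 5 of the 8 members were higher in KO mice, and none was called lower, against 1.79% of 11368 genes called higher, 0.466% lower and 2.25% in either direction. At an unadjusted p under 0.05, 1 member was lower in edgeR. Esm1 was at 7.69 CPM in WT1 and 2.77 in WT2, against 314 in KO1 and 173 in KO2 (log2 fold change 5.42 ± 0.40, edgeR adjusted p = 0.000521). Prnd was at 0.350, 1.04, 71.0 and 32.3 CPM (6.05 ± 0.56, 0.000810), and Fscn1 at 2.10, 3.47, 73.9 and 23.3 CPM (4.02 ± 0.57, 0.00998). All KO values exceeded all WT values for these 3 genes. In each WT mouse Prnd had 3 UMIs or fewer in the mural sum, so the size of its fold change rests on few WT counts. Fxyd6 (1.85 ± 0.30, 0.0135) and Kit (1.45 ± 0.31, 0.0413) were also higher, while Odc1 (0.91, 0.0643), Trp53i11 (0.17, 0.822) and Mcam (-0.54, 0.284) did not pass. All 5 calls, and every other gene call in mural cells, were lost when either WT mouse was left out, and those of Fscn1, Fxyd6 and Kit also without the deepest 5% of cells.

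Endothelial markers moved with this result. Pericyte-like cells held a median of 1 of 7 endothelial markers in each WT mouse but 5 in KO1 and 4.5 in KO2, and their Apln level was 1.70 and 2.05 CPM in WT against 584 and 287 CPM in KO. Pericyte-like cells alone gave 6 members higher in KO, where 635 of 9786 genes tested were called in either direction, with Esm1 at 35.7, 8.19, 391 and 316 CPM. In mural cells with at most 1 endothelial marker Esm1 was at 0 CPM in both WT mice, 6.48 in KO1 and 5.76 in KO2. Esm1 had too few UMIs there to pass the filter on low counts and was not tested. Of the 4 members that edgeR tested there, none was called or had an unadjusted p under 0.05.
The makeup of the mural cells also differed, since smooth muscle-like cells numbered 213 in WT1 and 190 in WT2, against 52 in KO1 and 193 in KO2, and the 8 smooth muscle markers summed to 5497 CPM in the mural cells of KO1 against 13673 to 20178 CPM in the other mice. In smooth muscle-like cells alone Esm1 was at 0.440, 0, 7.27 and 15.5 CPM (edgeR adjusted p = 0.0711), and no member was called, with 1 of 4 at an unadjusted p under 0.05.

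**Figure D4:**
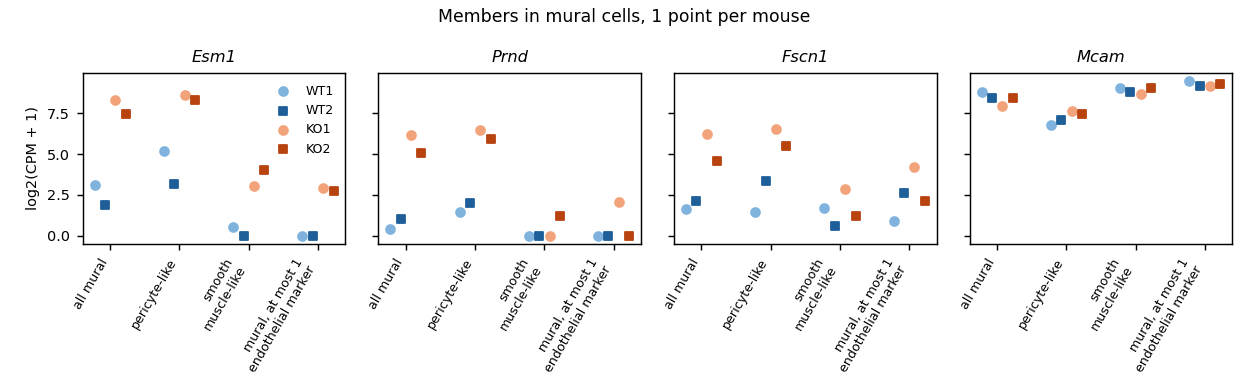
Level of Esm1, Prnd, Fscn1 and Mcam (y axis, log2 of CPM plus 1) in all mural cells, pericyte-like cells, smooth muscle-like cells and mural cells with at most 1 endothelial marker, with 1 point per mouse. Esm1 of the KO mice drops from 391 and 316 CPM in pericyte-like cells to 6.48 and 5.76 CPM in mural cells with at most 1 endothelial marker, where Mcam is at 572 and 631 CPM.

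Mcam and Trp53i11 were also carried by smooth muscle-like cells of every mouse. Mcam was at 532 CPM in WT1 and 445 in WT2, against 405 in KO1 and 522 in KO2 there, and Trp53i11 at 188, 115, 146 and 134 CPM. Odc1 was there at 46.7 to 70.6 CPM. In ECs without Apln Mcam and Trp53i11 were at 6.95 to 9.94 and 10.6 to 17.4 CPM. Neither gene passed the genotype test in the mural sum.

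The genotype effect in rank-0 ECs was compared with that in mural cells within each mouse. It differed for 3 of the 8 members, while 1.32% of the 13539 genes tested did. Cells with Apln UMIs had been left out of the ECs but not of the mural cells. Apln in the mural cells was at 2.10 and 0.693 CPM in the WT mice and 467 and 152 CPM in the KO mice. The members had been picked as high in Apln-rich cells, and the part of this unequal filter was not tested. The effect on Fxyd6 was lower in ECs by 3.69 ± 0.31 on the log2 scale (edgeR interaction, adjusted p = 0.000216), that on Prnd by 3.57 ± 0.64 (0.0204) and that on Odc1 by 1.07 ± 0.20 (0.0216). Esm1 had the same fitted effect in both (difference -0.04 ± 0.84, adjusted p = 0.995), with a wide error. Without WT1 or WT2 the calls of Prnd and Odc1 were lost. The value for Prnd also rests on 3 UMIs or fewer in the mural sum of each WT mouse.

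Esm1 was not limited to Apln-rich ECs. Fenestrated endothelial-like cells, named from Plvap and other markers, carried Esm1 at 842 CPM in WT1 and 678 in WT2, against 758 in KO1 and 892 in KO2, and the genotypes overlapped. They also held Trp53i11 (199 to 309 CPM), Mcam (208 to 257 CPM) and Fscn1 (79.9 to 112 CPM) but little Prnd (2.19 to 6.06 CPM), Kit (4.40 to 8.04 CPM) and Fxyd6 (0 to 3.66 CPM). Their Apln was at 14.3 to 28.3 CPM. When ECs were instead gated on marker UMIs, which lets these cells in, they held 997 of 1013 Esm1 UMIs of WT1 and 1606 of 1646 of WT2 at rank 0, and the log2 fold change of Esm1 there was 0.92 (still called by edgeR). In the KO mice the order of Esm1 levels ran from the Apln rank of 10 or more, through fenestrated endothelial-like cells (758 and 892 CPM), the Apln-led cluster (409 and 259 CPM) and the cluster led by Gkn3 (45.8 and 35.4 CPM), whose leading genes include the arterial genes Bmx and Sema3g, to the cluster led by Ndnf (5.01 and 8.5 CPM). The spans of KO1 and KO2 did not overlap between these neighbours, whereas the Adgrg6-led cluster differed between the KO mice (1.07 and 30.2 CPM). In the WT mice Esm1 was at 0.331 and 1.04 CPM in the Gkn3-led and at 1.01 and 0.547 CPM in the Ndnf-led cluster, and these values overlapped.

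**Figure D5:**
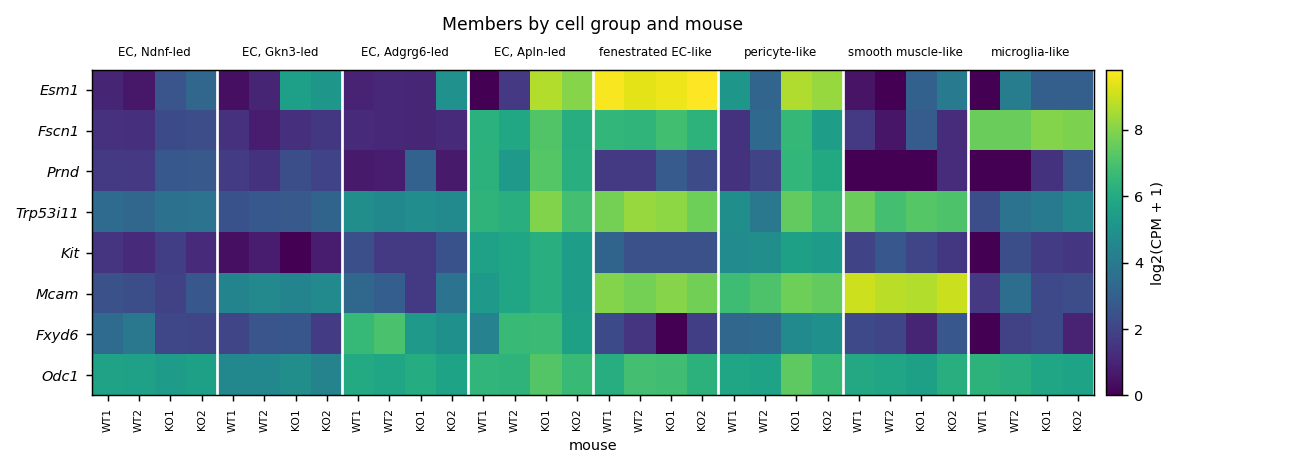
Level of each member (rows, colour as log2 of CPM plus 1) in 8 groups of cells, each with its 4 mice (columns). Rows are to be read across, since levels of different genes are not per length: Esm1 is brightest in fenestrated endothelial-like cells of all mice and in the Apln-led ECs and pericyte-like cells of KO1 and KO2, Fscn1 in microglia-like cells and Mcam in smooth muscle-like cells.

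Fscn1 was also carried by microglia-like cells, at 189 CPM in both WT mice, 254 in KO1 and 232 in KO2. It was detected in 33.3% to 37.8% of them at 2000 UMIs per cell, so its low share in rank-0 ECs of WT mice (0.390% and 0.238% at that depth) was far under that of a cell type that uses it. Fxyd6 was highest among the EC clusters in the Adgrg6-led cluster in the WT mice, whereas in the KO mice the Apln-led cluster (102 and 47.1 CPM) was above it.

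Over the 4 mice, the share of cells with a UMI lay in both KO mice above both WT mice for 5 members in ECs, where 4.67% of all genes tested did so, and for 3 at rank 0 (3.15%), 2 in the middle rank (1.61%) and 5 in mural cells (15.1%). It lay below both WT mice for 0, 1, 2 and 0 members, against 9.01%, 12.9%, 54.3% and 3.55% of genes. At 2000 UMIs per cell 7, 5, 4 and 5 members lay above and 0, 1, 2 and 1 below. The share of all genes was not computed at that depth, so these counts have no background to be set against. With 2 mice against 2, the exact two-sided permutation test cannot go below p = 0.33, and no share passed among 32 comparisons (smallest adjusted p = 0.593). By level rather than share, 7 members lay wholly above the WT mice and 0 below in ECs, where 27.0% and 23.6% of genes did. The counts were 5 and 2 at rank 0 (26.9% and 21.3% of genes), 4 and 2 in the middle rank (26% and 21.8%), and 6 and 1 in mural cells (33.1% and 15.7%).

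Genes of other groups were taken from fixed lists to place the members. Of 28 other tip cell genes, 15 were higher and 2 lower in KO ECs, with a median log2 fold change of 0.86. Lcp2, an adaptor protein (log2 fold change 5.04), Lamb1, a laminin chain (4.39), the chemokine receptor Cxcr4 (3.78) and the peptide Adm (1.92) were higher, as was Apln (6.02), which set the ranks, while Sox17 (-0.57) and Vwf (-0.61) were lower. Within KO1 and KO2, Vwf was at 244 and 289 CPM at rank 0 and at 611 and 636 CPM in the top rank. Sox17 went the other way, from 212 and 194 to 94.5 and 73.0 CPM. At rank 0, 10 of 27 were higher, among them Lcp2 (3.99), Cxcr4 (2.30) and the semaphorin co-receptor Nrp1 (1.12), and Vwf was lower (-0.82). The study chose tip cell genes on these samples, so such counts are not independent evidence of direction. None of 14 stalk and quiescent endothelial genes was called in ECs or at rank 0, with medians of -0.12 and -0.09, and Hey1 alone was called in the middle rank.

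Lists of partners of the members were counted in the same way. Of 19 genes for filopodia and actin bundling, Fscn1, Myo10 (1.15), the motor protein of filopodia tips, and Pls3 (0.71), an actin bundler, were higher in ECs, and Fscn1 and Myo10 (0.92) at rank 0. Of 15 polyamine genes tested, Odc1 included, Amd1 alone was called, as lower (-0.63 in ECs and -0.52 at rank 0); it encodes the decarboxylase that supplies the propyl groups of spermidine and spermine. Among 12 genes of Kit signalling, Gab2, a docking protein, was higher (0.68) and Stat5a lower (-0.87) in ECs beside Kit itself. Of 9 Mcam ligands and partners tested, 6 were higher: Mcam, the laminin chains Lama4 (1.37), Lamb1 and Lamc1 (1.18), and the galectins Lgals1 (1.72) and Lgals3 (4.08), while the ligand Wnt5a was lower (-1.85).
Among 12 p53 targets Trp53i11 and Phlda3 (1.28) were higher, and among 3 prion family genes only Prnd was called. No FXYD or Na,K-ATPase gene was called in ECs, and at rank 0 Atp1b1 (-0.80) was lower together with Fxyd6. Of 11 dissociation stress genes, 4 were lower in KO ECs (Hspa1a, Hspa1b, Ier2 and Junb, from -0.69 to -0.94), and their part in the other results was not tested.

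Likeness to Esm1 was measured as the Pearson correlation of log2(CPM + 1) over 14 sums (the 4 mice at rank 0 and in the middle rank, the 2 KO mice in the top rank, and the 4 mural sums), among 12096 genes with at least 100 EC UMIs. The sums share mice and libraries, so the values are a description. Six4 (0.97), Mef2a (0.97), Pcdh17 (0.96), Ptpre (0.96), Pde4b (0.95), Tec (0.95), Golga3 (0.95), F730043M19Rik (0.95), Itga4 (0.95) and Lrrc58 (0.95) were the 10 genes most like it. The integrin subunit gene Itga4 was at 14.8 to 18.4 CPM in WT and 74.9 to 108 CPM in KO cells at rank 0 and reached 748 and 1018 CPM in the top rank. The members were less like Esm1, with Fscn1 (0.86) at place 226, Prnd (0.85) at 263, Kit (0.69) and Fxyd6 (0.43) at 2432.

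The Esm1 gene (ENSMUSG00000042379) spans chr13:113209659-113218098 in 3 exons and overlaps Gzmk on the other strand, for which no UMI was counted in ECs or mural cells. Mcam (ENSMUSG00000032135, chr9:44134469-44142727) overlaps Gm10687 on the other strand, which was at 0.568 to 1.38 CPM in ECs. Prnd (ENSMUSG00000027338, chr2:131950861-131956130) overlaps Prn on the same strand, and Odc1 (chr12:17544794-17551505) overlaps Gm22748. Neither Prn nor Gm22748 was a feature of the count matrices, so no UMI was assigned to them. The strand setting of the counting was not given in the sources used here.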

How the data were processed

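Single-cell RNA-seq was measured in 4 mice, 1 library each, on the 10x platform. The authors deposited raw UMI counts per gene and cell, made with Cell Ranger (6.1.2 in the submitters' processing notes) on mm10; the annotation and strand setting were not given in the sources used here. The matrices also hold a yfp row with 0 UMIs. From these counts, cells with over 500 genes and under 10% mitochondrial UMIs were clustered in Seurat 5.3.0 (50 components, resolution 0.2) without the members and listed genes, and clusters were named from markers. The Adgrg6-led cluster scored as endothelial but was left unnamed; its cells were counted as ECs. No doublet caller was run.

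UMIs were summed per mouse and fitted with edgeR 4.0.16 (filterByExpr, TMM, quasi-likelihood test, Benjamini-Hochberg threshold 0.05); the printed levels are plain CPM except where named TMM-normalized. The interaction was fitted on 2 sums per mouse with mouse as a term. Each printed SE is the absolute log2 fold change divided by the square root of the quasi-likelihood F statistic. It is thus derived from the test and is not a spread measured directly over mice. Shares at 2000 UMIs are exact hypergeometric expectations. Intervals are 95%, exact, and cover counting error only. The fits were tested on simulated data. Each library is 1 mouse, and the paper speaks of 2 experiments without saying which mouse was in which. The edgeR p-values rest on 2 mice per genotype, with each gene's spread moderated towards that of the other genes.

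Named genes were the 8 members, Apln, listed genes that passed a test and the 10 genes most like Esm1. Members and lists were chosen with earlier results of these data known. Alternatives were DESeq2 1.42.0, total UMI scaling, other filters, a marker gate, leaving out deep cells or each mouse, other clusterings and a replicate block. Those leaving out the Adgrg6-led or Apln-led cluster, or naming clusters by score alone, were chosen after seeing the data. Motifs were read from RefSeq promoters, and gene positions from the GENCODE annotation of GRCm38.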

Additional observations from a re-analysis of the deposited data

Results flagged for a closer look

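The difference between the KO effect in ECs without Apln UMIs and that in mural cells was past the threshold for 3 members in edgeR's interaction test. On the log2 scale, the effect in ECs minus that in mural cells was -3.69 for Fxyd6, which was lower in KO ECs and higher in KO mural cells. It was -3.57 for Prnd, which was higher in KO in both groups of cells but had 3 UMIs or fewer in each WT mural sum. It was -1.07 for Odc1, which did not pass in either group alone. Beside these values stand the endothelial markers of the KO pericyte-like cells (a median of 5 and 4.5 of 7, against 1 in both WT mice) and the smaller Adgrg6-led cluster of the KO mice, whose part in the differences was not tested. Cells with Apln UMIs were left out of the ECs but not of the mural cells, and the part of this was not tested either.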

How the results depend on the processing

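Esm1 stayed higher in KO, and called, under each alternative run in all ECs (log2 fold change 2.10 to 8.28) and at rank 0 (0.92 to 5.49), lowest with cells gated on marker UMIs in both. With 2 mice per genotype, leaving out 1 leaves an arm with a lone mouse, assumed to vary like the others. In all ECs, genes called went from 790 to 1594 without a filter on low counts and to 410 with cells gated on marker UMIs. At rank 0 they went from 535 to 1347 and 325, and to 113 without the Apln-led cluster, where 1 member was called higher. No member was called lower at rank 0 without the deepest 5% of cells or without the Adgrg6-led cluster (0 in each by edgeR; Fxyd6 had an unadjusted p under 0.05 in each, as the 1 member lower). Mcam turned to 0.17 in the gate and 0.0109 without the Apln-led cluster.

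In the middle rank, genes called went from 482 to 248 with DESeq2, 858 without the filter and 213 in the gate, which takes in fenestrated cells. There the gate called 0 members higher (2 at an unadjusted p under 0.05), and Esm1 (1.00) did not pass, with Trp53i11 at -1.17 and Mcam at -1.10; fenestrated endothelial-like cells held 25 of 25 and 114 of 116 Esm1 UMIs of the gated WT cells. Members called lower fell to 1 with at least 50 UMIs per mouse, without the deepest cells and without the Adgrg6-led cluster. Without the deepest cells 1 member was higher, with Trp53i11 at -0.26 and Mcam at -0.20, and Trp53i11 was at -0.15 without the Adgrg6-led cluster.

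In mural cells, genes called went from 256 to 395 by total UMIs, 1101 without the filter, 159 with at least 50 UMIs per mouse, 39 without the deepest cells (2 members higher, Trp53i11 at -0.62), 635 in pericyte-like cells (Mcam at 0.58), 3 in the gate, 1 with at most 1 endothelial marker and 0 in smooth muscle-like cells (573 at an unadjusted p under 0.05). The last 3 called 0 members higher, out of 5, 4 and 4 members tested. Trp53i11 turned to -0.54 in the gate, -0.41 with at most 1 endothelial marker and -0.22 in smooth muscle-like cells. Kit turned to -0.998 in the gate and -1.32 with at most 1 endothelial marker. In smooth muscle-like cells Odc1 was at -0.0129 and Esm1 at 5.18.

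Shares thinned to 2000 and 1000 UMIs turned the sign of the KO minus WT difference, in percentage points, for Fxyd6 in ECs (0.265, 0.289), Mcam at rank 0 (0.0471, 0.0171), Trp53i11 in the middle rank (0.675, 1.32), and at 1000 UMIs for Kit in the middle rank (0.539) and in mural cells (-0.0956). By share, members wholly above WT numbered 5 at rank 0 at both depths and 4 in the middle rank at 2000 UMIs, and 1 lay wholly below in mural cells at both. The share of all genes was not computed at either depth. Averaging each cell's CPM put the KO means at 1214 for Esm1, 814 for Trp53i11 and 337 for Fxyd6 in the top rank, and at 214 for Esm1, 98.7 for Trp53i11, 76.2 for Prnd, 29.7 for Fxyd6, 75.6 for Odc1, 45.7 for Kit and 37.5 for Mcam in the middle rank. Ranking by Apln per 10000 UMIs put Mcam at 16.4 there. The cause of these moves was not tested.

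Leaving out each mouse in turn gave 270 to 1312 genes called in ECs (0 to 1 members lower, Fxyd6 -0.63 to 1.06), 361 to 987 at rank 0 (Mcam -0.30 to 0.20), and 317 to 989 in the middle rank (1 to 3 members higher, 1 to 2 lower, Kit -0.89 to 0.58, Trp53i11 -0.37 to 0.57). In mural cells it gave 0 to 1417 genes called, 0 to 6 members higher and 0 to 1 lower, with Esm1 at 4.85 to 6.35 and Trp53i11 at -0.24 to 0.74. Without WT1 and without WT2, 0 mural genes were called by edgeR, while 1385 and 1168 had an unadjusted p under 0.05, among them 7 and 6 members higher. For the interaction it gave 29 to 1162 genes called, 1 to 4 members lower, Trp53i11 at -0.19 to 0.76 and Esm1 at -0.88 to 0.45.

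Replicate numbers are shared between genotypes without a shared batch in the labels, and same-numbered mice share a sex. Deviations of same-numbered mice correlated at 0.085 (Pearson) and -0.14 (Spearman) over 13517 genes, so the numbers were not taken as pairs. With a replicate block, genes called were 904 in ECs, 938 at rank 0, 361 in the middle rank and 319 in mural cells, and members called higher were 7, 4, 3 and 6. The block added Odc1 in ECs (0.71, edgeR adjusted p = 0.0263), Trp53i11 at rank 0 (0.53, 0.0174) and Odc1 in mural cells (0.88, 0.0425).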
